A study of Zea mays with 3 samples.

Results

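The material described here is the set of DNA fragments whose 2 ends could be placed in 3 anti-CENH3 chromatin immunoprecipitation sequencing (ChIP-seq) libraries of maize, and the quantity followed is their length. A fragment was a pair of aligned reads with the same name that lay on the same chromosome, on opposite strands, with an outer distance of 50 to 600 bp, and pairs with the same outer start and end were counted once. On chromosomes 1 to 10, 19663961 fragments met these conditions out of 22712889 read names in the files. F3-152 gave 10107447 fragments, F3-600 gave 6680784 and B73 gave 2875730.

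The libraries came from young leaves of F3-152, F3-600 and B73. B73 is the inbred line of the reference genome and is labelled as the control, whereas the labels give F3-152 and F3-600 only by name, in a series titled for irradiated material. Nuclei of all 3 were digested with micrococcal nuclease and precipitated with a rabbit antiserum against maize CENH3 peptides, and gel slices of 180 to 400 bp, adapters included, were taken for sequencing. Each line was represented by 1 library without an input or a mock precipitation, and the 3 libraries carried 3 distinct instruments in their read names, so the effects of line, preparation and sequencing on length cannot be told apart.

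CENH3 is the histone H3 variant that replaces H3 in the nucleosomes of active centromeres and marks the place where the kinetochore is built. Micrococcal nuclease cuts the linker between nucleosomes and then trims inward until the wrapped DNA protects itself, so the length of a fragment reports how much DNA a particle shielded and whether a fragment spans a single nucleosome or several neighbours. A precipitate also carries some chromatin without CENH3, which is why regions outside centromeres have reads as well.

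Pairing was nearly complete in the F3 lines and less so in B73. Fragments used 96.5% of the rows in F3-152, 92.5% in F3-600 and 74.6% in B73. Names with a single row made up 5.07% of the names in F3-152, 6.51% in F3-600 and 27.9% in B73, and names with mates on different chromosomes 0.155%, 0.301% and 6.32% in the same order. The B73 lengths therefore describe a smaller part of its library. Exact copies among the pairs were rare, since counting each outer start and end once removed 0.0125% of the pairs in F3-152, 0.0114% in F3-600 and 0.00456% in B73. Of the single rows, 96.5% were distinct in position and strand in F3-152, 93.7% in F3-600 and 33.3% in B73. Of the rows whose name had 2 rows, 96.5%, 96.6% and 90.2% were distinct in the same order. Repeated positions in B73 were thus more frequent among single rows, which gave no fragment, but were also present among the others.

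The 3 libraries differed widely in overall length. The median fragment was 169 bp in F3-152, 302 bp in F3-600 and 192 bp in B73. Fragments under 120 bp, shorter than the DNA of a full nucleosome core, made up 7.67% in F3-152 (95% exact binomial interval 7.66% to 7.69%), 1.38% in F3-600 (1.37% to 1.39%) and 6.15% in B73 (6.13% to 6.18%). Such intervals cover counting error alone, since no line had a second library. Fragments of 120 to 200 bp, the range of a single nucleosome, made up 64.1% in F3-152, 21.8% in F3-600 and 47.1% in B73. Fragments over 200 bp made up 28.3%, 76.8% and 46.7% in the same order. F3-152 was thus dominated by single nucleosomes and F3-600 by longer pieces. F3-152 minus B73 came to 16.9 percentage points for 120 to 200 bp and −18.5 points for over 200 bp, and F3-600 minus B73 to −25.3 and 30.1 points. Between the F3 lines, F3-152 minus F3-600 was 42.2 points for 120 to 200 bp (95% Newcombe interval 42.2 to 42.3). Fragments over 400 bp, past the upper limit of the gel slice even without adapters, made up 0.511% of F3-152, 16.6% of F3-600 and 4.93% of B73.

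Bins of 10 kb were classed by the reads of their own library, a measure that does not use length. Bins at 10 times the median of non-empty bins or more are called enriched here. F3-152 had 644 enriched bins, or 0.315% of its non-empty bins, F3-600 had 491 (0.241%) and B73 had 734 (0.358%). The median bin held 90 reads in F3-152, 64 in F3-600 and 32 in B73. Enriched bins held 749201 fragments of F3-152, 455314 of F3-600 and 254734 of B73, and bins below 2 times the median held 7083837, 4986931 and 2348459.

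Short fragments were more frequent in enriched bins of both F3 lines and less frequent in those of B73. In F3-152 fragments under 120 bp made up 9.08% in enriched bins and 7.52% in bins below 2 times, a difference of 1.57 points (95% Newcombe interval 1.5 to 1.64). In F3-600 the shares were 2.63% and 1.27%, a difference of 1.36 points (1.31 to 1.41). In B73 they were 4.13% and 6.30%, a difference of −2.17 points (−2.25 to −2.08). The sign was the same under each of the 14 alternatives run for each library, but the size was not. A class limit of 110 bp gave 0.324 points in F3-152 and 0.748 in F3-600, one of 130 bp gave 3.56 and 2.31, and leaving out narrow domains gave 0.736 points in F3-600. Pairs of low mapping quality, described below, went the other way in B73.

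Fragment numbers changed in a step at the most common aligned length of 101 bp. The number of fragments of 101 to 105 bp was 3.04 times that of 96 to 100 bp in F3-152, 2.88 times in F3-600 and 2.54 times in B73. The step was larger in enriched bins than in bins below 2 times, with 3.76 and 2.93 times in F3-152, 3.63 and 2.78 times in F3-600, and 3.61 and 2.49 times in B73. Where only fragments of 101 bp and longer were counted, an alternative chosen after seeing the data, the difference in the share under 120 bp was 1.93 points in F3-152, 1.15 points in F3-600 and −0.922 points in B73. The part of the step in these values was not tested further.

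**Figure D1:**
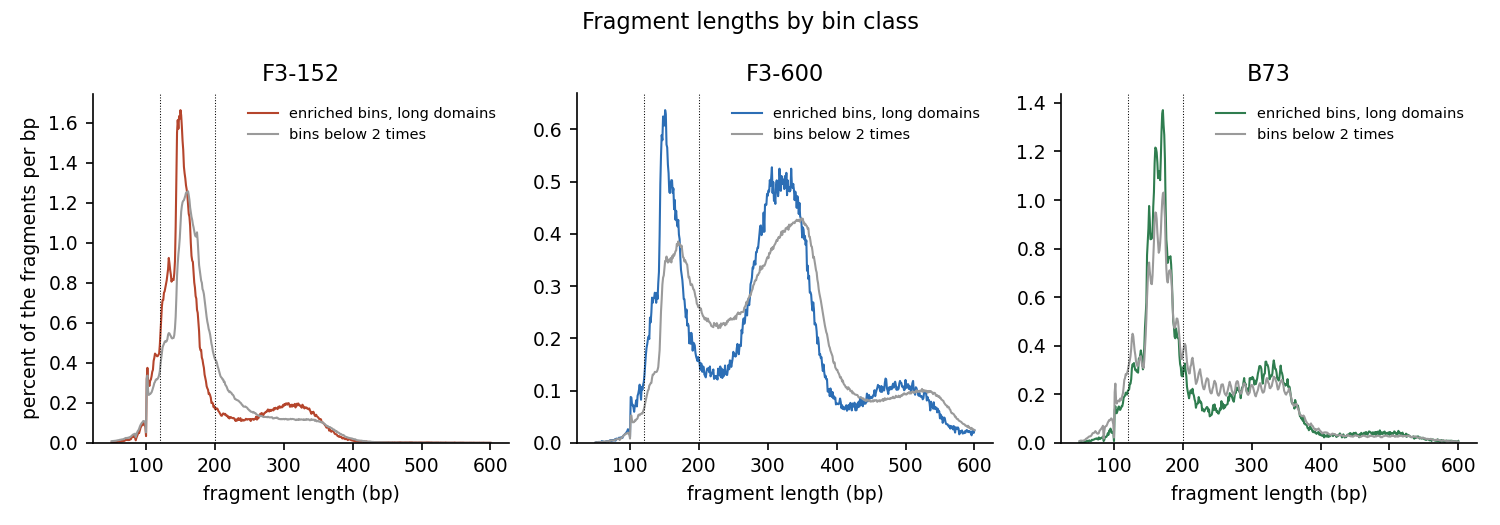
Length distribution of fragments in enriched bins of long domains (coloured) and in bins below 2 times the median (grey), with the percent of the fragments of that class per bp of length on the vertical axis, whose scale differs between panels; dotted lines mark 120 and 200 bp. The first maximum lies at 150 bp in the enriched bins of both F3 lines and at 169 bp in those of B73.

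Within the class of 120 to 200 bp, the single-nucleosome fragments of the F3 lines were shorter in enriched bins. The most frequent length between 120 and 250 bp, after an 11-bp running mean, was 150 bp in enriched bins and 158 bp in bins below 2 times in F3-152, and 151 bp and 171 bp in F3-600. In B73 it was 169 bp in both classes. A split of the class at 160 bp, chosen after the curves were seen, shows the same contrast as a share. In F3-152 62.3% of the fragments of 120 to 200 bp were under 160 bp in enriched bins, against 46.4% in bins below 2 times. In F3-600 the shares were 50.9% and 36.8%, and in B73 39.0% and 40.2%. The difference was 15.8 points in F3-152, 14.1 points in F3-600 and −1.22 points in B73. For B73 the sign depended on the bins, as bins enriched in all 3 libraries gave 0.816 points, and on mapping quality, as described below.

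The share of 120 to 200 bp was higher over all enriched bins of every library, but not in the narrow domains of F3-152 and B73. Fragments of 120 to 200 bp made up 64.1% in enriched bins and 63.8% in bins below 2 times in F3-152, 27.3% and 21.6% in F3-600, and 50.8% and 46.7% in B73. Fragments over 200 bp were fewer over all enriched bins of every library, with 26.8% and 28.7% in F3-152, 70.1% and 77.1% in F3-600, and 45.1% and 47.0% in B73. Median length was 160 bp in enriched bins and 171 bp in bins below 2 times in F3-152, 296 bp and 303 bp in F3-600, and 188 bp and 193 bp in B73.

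Enriched bins of long domains also had a cleaner ladder, the series of lengths left by 1, 2 and more nucleosomes. Fragments over 200 and up to 260 bp, which lie between the maxima of 1 and 2 nucleosomes, were fewer in the enriched bins of long domains in all 3 libraries. They made up 7.67% there and 14.3% in bins below 2 times in F3-152, 8.69% and 14.1% in F3-600, and 10.2% and 16.0% in B73. In enriched bins of narrow domains they made up 13.6%, 11.4% and 13.7% in the same order, nearer to bins below 2 times than long domains were. The windows were chosen after the curves were seen. The second maximum, between 260 and 420 bp, lay at 322 bp in enriched long domains and at 346 bp in bins below 2 times in F3-600, and at 323 bp and 332 bp in B73. F3-152 had a second maximum at 304 bp in its enriched long domains and none inside the window in bins below 2 times. A further maximum stood at 489 bp in enriched long domains of F3-600 and at 525 bp in its bins below 2 times. Enriched long domains of B73 had one at 488 bp, with none inside the window in its bins below 2 times or in either class of F3-152. The first, second and further maxima were therefore all at shorter lengths in the enriched long domains of F3-600.

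Enriched bins up to 500 kb apart were joined into domains, and a domain of at least 10 enriched bins is called long. F3-152 had 8 long domains, F3-600 had 7 and B73 had 7. In F3-152 the share under 160 bp within 120 to 200 bp ran from 59.7% to 66.5% over its 8 long domains, all above the 46.4% of its bins below 2 times. In F3-600 it ran from 47.4% to 58.5% over 7, all above 36.8%. In B73 it ran from 37.2% to 40.2%, with 6 of 7 below the value of its bins below 2 times. The ranges of the 3 libraries thus did not overlap. Their most frequent length was 149 to 150 bp in F3-152, 148 to 153 bp in F3-600 and 166 to 169 bp in B73. Domains of a library are not replicates of its line, and they share its preparation.

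**Figure D2:**
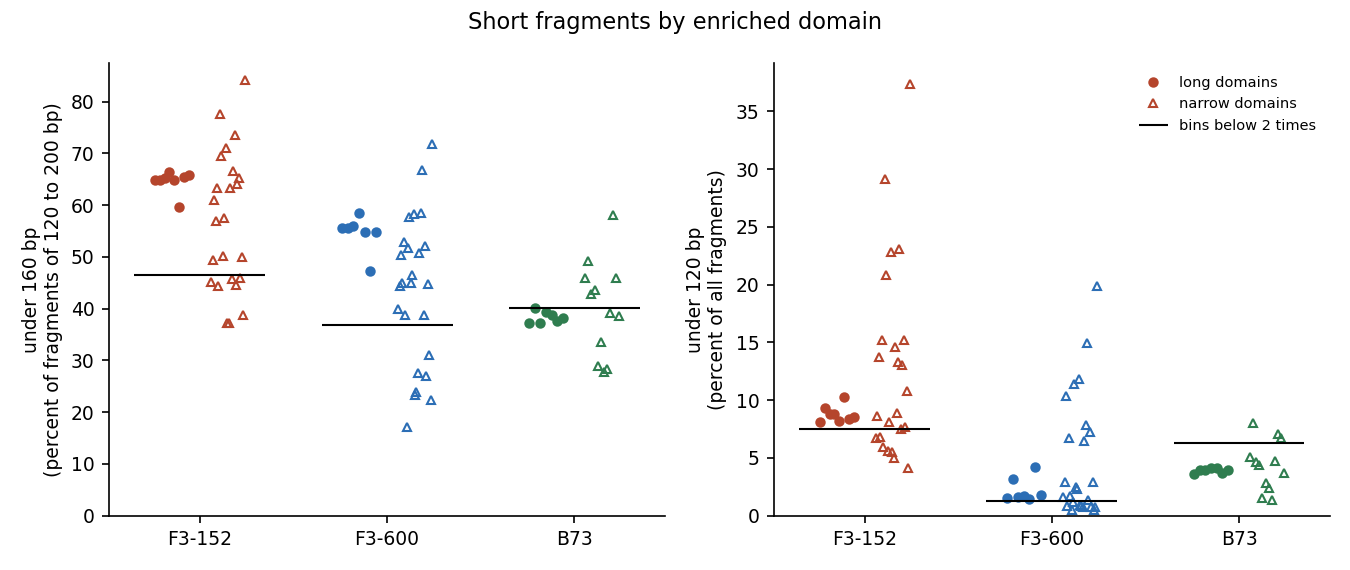
Share under 160 bp within the fragments of 120 to 200 bp (left) and share under 120 bp of all fragments (right) in each enriched domain with at least 1000 fragments, with long domains as filled circles, narrow domains as open triangles and the library's bins below 2 times as a black line. All 8 long domains of F3-152 and all 7 of F3-600 lie above their line in both panels, and the 7 of B73 lie below theirs on the right.

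The domain with the most reads on each chromosome was long on some chromosomes and narrow on others. Over the 10 chromosomes of F3-152, its share under 160 bp ran from 55.2% on chromosome 2 (176910001 to 176920000 in B73 RefGen_v4 coordinates, 644 fragments) to 66.6% on chromosome 7 (56630001 to 56670000, 9640 fragments). In F3-600 it ran from 17.1% on chromosome 2 (157580001 to 157600000, 1710 fragments) to 58.5% on chromosome 7 (56650001 to 56670000, 7421 fragments). In B73 it ran from 27.7% on chromosome 6 (12820001 to 12830000, 3006 fragments) to 58.0% on chromosome 7 (56630001 to 56670000, 1908 fragments). Both ends of the range were thus narrow domains in every library, and the highest lay at the same place on chromosome 7 in all 3.

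Other domains named here were picked after their values were seen. Chromosome 5 had a long domain in every library. From 104310001 to 106420000 in F3-152, the share under 160 bp was 66.5% over a median length of 157 bp, from 104410001 to 106040000 in F3-600 it was 58.5% over 297 bp, and from 104750001 to 106560000 in B73 it was 39.4% over 183 bp. The lowest long domain of both F3 lines began at 57390001 on chromosome 9, with 59.7% in F3-152 and 47.4% in F3-600.

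Some long domains of the F3 lines had no long B73 domain at the place. F3-152 had a long domain on chromosome 1 from 140710001 to 142100000, with 64.8% under 160 bp, and one on chromosome 10 from 11840001 to 12770000, with 65.5%. F3-600 had one on chromosome 6 from 48960001 to 50490000, with 54.8%, and one on chromosome 3 from 79910001 to 80180000, with 55.6%. For this share each lay inside the range of its library's long domains. The share under 120 bp was 8.10% and 8.38% in this pair of F3-152 domains and 1.41% and 1.5% in this pair of F3-600 domains. The first value of each pair was the lowest among the long domains of its library, whose medians were 8.67% in F3-152 and 1.69% in F3-600.

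Narrow domains, those with fewer than 10 enriched bins, were mixed in length. With at least 1000 fragments there were 24 in F3-152, 25 in F3-600 and 12 in B73. The share under 120 bp was above that of bins below 2 times in 16 of 24, 16 of 25 and 3 of 12, and spanned 4.16% to 37.4% in F3-152, 0.5% to 19.8% in F3-600 and 1.33% to 8.04% in B73. In the F3 lines the 3 narrow domains with the most fragments were on chromosome 1. From 137000001 to 137120000 the share under 120 bp was 15.2% in F3-152, 6.77% in F3-600 and 4.66% in B73. From 197000001 to 197020000 it was 5.93%, 1.68% and 4.38% in the same order. At the start of chromosome 1, in a domain that ended at 30000 in F3-152 and at 470000 in F3-600 and B73, it was 6.68%, 1.65% and 5.04%. These sites were thus not alike, and in the F3 lines those at the chromosome start and from 197000001 came closer to bins below 2 times than the one from 137000001. Pooled narrow domains had more fragments over 200 bp than bins below 2 times in F3-152 (29.6% and 28.7%) and in B73 (51.8% and 47.0%), and fewer in F3-600 (68.7% and 77.1%). In B73 the narrow domain with the most fragments lay on chromosome 9 from 57390001 to 57650000 and had 3.71%.

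**Figure D3:**
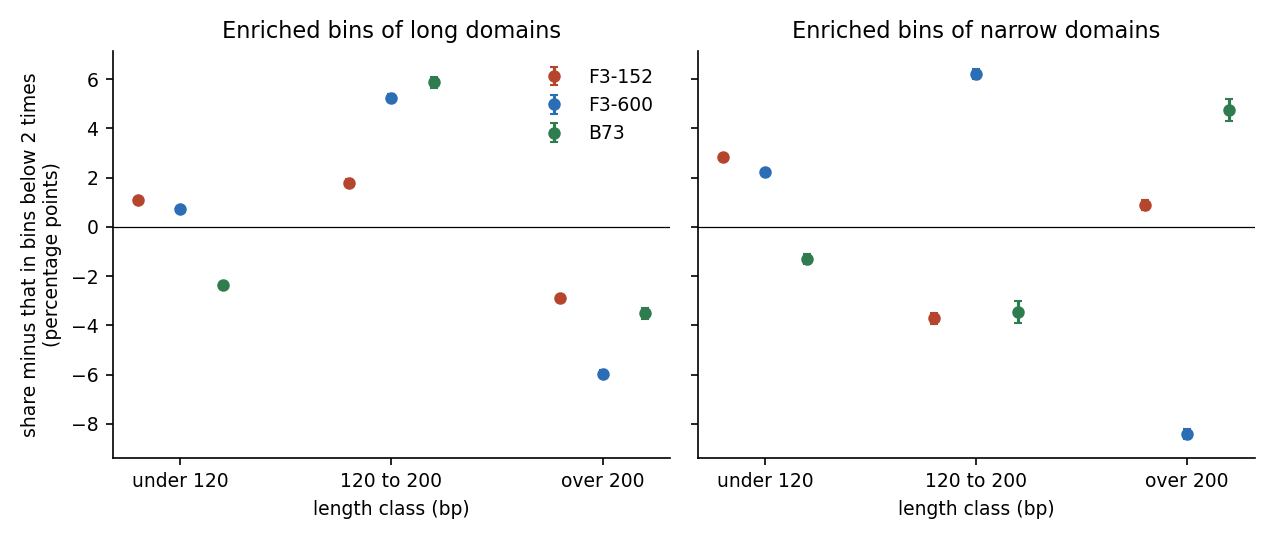
Difference in the share of each length class between enriched bins and bins below 2 times, in percentage points, for enriched bins of long domains (left) and of narrow domains (right), with 95% Newcombe intervals over fragments that cover counting error alone. In long domains the share under 120 bp was 1.11 points higher in F3-152, 0.736 points higher in F3-600 and differed by −2.37 points in B73.

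The shorter lengths of the F3 lines began below the threshold for enriched bins. In bins of 2 to 5 times the median, the share under 160 bp within 120 to 200 bp was 48.2% in F3-152 and 38.4% in F3-600, close to the 46.6% and 36.9% of bins at 1 to 2 times. From 5 to 10 times it was 59.8% in F3-152 and 51.6% in F3-600. From 20 to 40 times it reached 65.6% in F3-152 and 55.6% in F3-600. Bins of 40 times or more, which include the narrow sites with the highest counts, had 56.1% and 45.8%. The shares of B73 ran from 37.8% to 42.1% over all 8 classes. The rise between 2 to 5 and 5 to 10 times was seen in both F3 lines. In B73 the share fell there instead, from 42.1% to 38.7%.

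**Figure D4:**
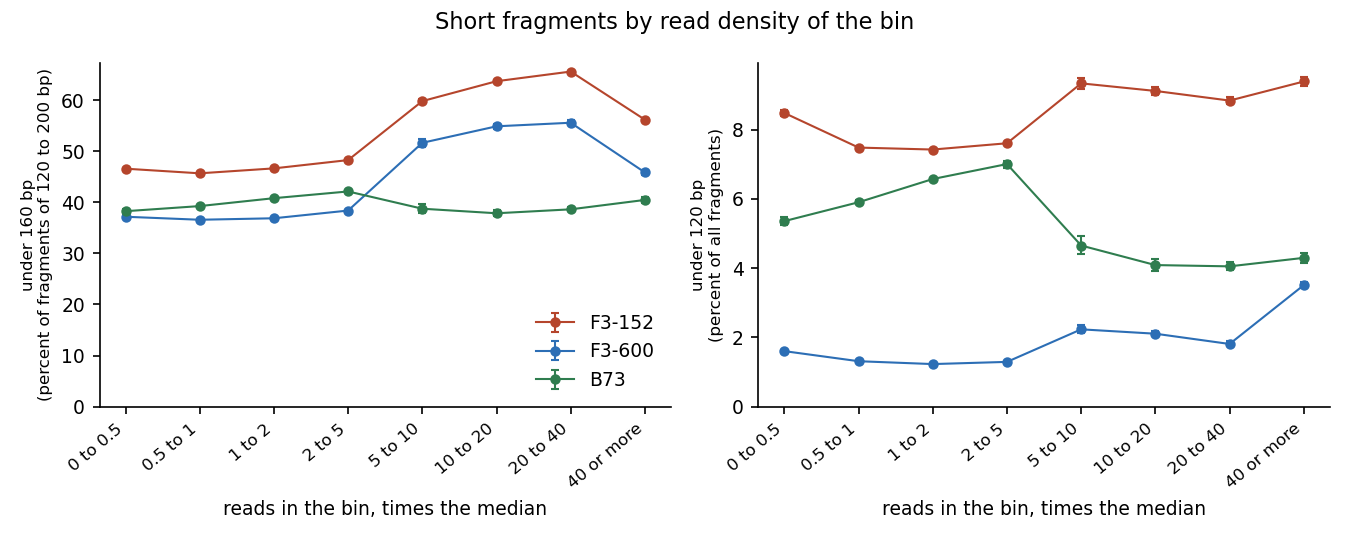
Share under 160 bp within 120 to 200 bp (left) and share under 120 bp (right) in classes of bins by reads over the median of non-empty bins, with 95% exact binomial intervals over fragments that cover counting error alone. Shares under 160 bp were 48.2% in F3-152 and 38.4% in F3-600 in bins of 2 to 5 times, and 59.8% and 51.6% in bins of 5 to 10 times.

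Bins enriched in one line and below 2 times in both others let the same reference sequence be read in all 3 libraries. In the 104 bins enriched in F3-152 alone, 0.0502% of the bins with reads in any library, the share under 160 bp within 120 to 200 bp was 65.1% in F3-152, against 38.1% in F3-600 (95% exact binomial interval 35.1% to 41.1%) and 41.6% in B73 (38.0% to 45.2%). In the 45 bins enriched in F3-600 alone (0.0217%) it was 52.0% in F3-600, against 46.1% in F3-152 (43.9% to 48.2%) and 34.9% in B73 (29.5% to 40.5%). The share was thus highest against its own bins below 2 times in the library enriched there. Each of these wide intervals of the other libraries included the value of that library's bins below 2 times. A larger set, 221 bins enriched in F3-152 and below 2 times in F3-600, gave 39.7% in F3-600 (37.7% to 41.8%), above its 36.8%. The like set for B73, 146 bins, gave 41.5% (38.6% to 44.5%), which included its 40.2%. In the 104 bins the most frequent length of F3-600 was 157 bp, against 171 bp in its bins below 2 times. Some shortening was therefore also seen in F3-600 where it was not enriched. In the 120 bins enriched in B73 alone (0.058%) the share under 160 bp was 52.3% in F3-152 (50.6% to 53.9%) and 44.4% in F3-600 (40.9% to 47.9%), against 37.5% in B73. Both F3 values lay above their own bins below 2 times, although these bins had 0.961 times the median in F3-152 and 0.836 times in F3-600. In the 254 bins enriched in all 3 libraries (0.123%) it was 60.6% in F3-152, 50.6% in F3-600 and 40.5% in B73.

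In the F3 lines the direction was nearly the same on every chromosome. The share under 120 bp was higher in enriched bins than in bins below 2 times on 10 of 10 chromosomes in F3-152, on 9 of 10 in F3-600 and on 1 of 10 in B73. The share under 160 bp within 120 to 200 bp was higher on 10 of 10, 9 of 10 and 3 of 10. The exception in F3-600 was chromosome 2, whose enriched bins held 1710 fragments in a single narrow domain from 157580001 to 157600000 and gave 0.526% under 120 bp and 17.1% under 160 bp. The exception in B73 for fragments under 120 bp was chromosome 7, with 3490 fragments and 7.28%.

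Mapping quality, the score that the aligner gave each row, moved with length, and the contrast of the F3 lines was present at each level of it. Among pairs whose lower score was 60, the share under 160 bp within 120 to 200 bp was 67.9% in enriched bins and 50.2% in bins below 2 times in F3-152, 58.6% and 39.5% in F3-600, and 41.0% and 43.9% in B73. From 30 to 59 it was 59.1% and 43.0% in F3-152, 48.1% and 34.4% in F3-600, and 36.5% and 36.3% in B73. Among pairs scored 20 to 29 it was 57.6% and 44.3% in F3-152, 48.2% and 35.7% in F3-600, and 40.9% and 38.4% in B73. In B73 it was thus lower in enriched bins only among pairs scored 60. The share under 120 bp was higher in enriched bins of both F3 lines at each level. In B73 it was 3.19% in enriched bins and 2.71% in bins below 2 times at 20 to 29. From 30 to 59 it was 3.34% and 4.32%, and at 60 it was 5.43% and 8.68%. Within enriched bins, pairs scored 60 made up 37.2% of fragments in F3-152, 24.1% in F3-600 and 38.9% in B73.

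Distances between fragment midpoints measure the spacing of neighbouring nucleosomes and were not used to class bins or lengths. They were taken between fragments of 120 to 200 bp in the same bin, with every bin given equal weight, after a 15-bp running mean. The first maximum lay at 175 bp in enriched long domains and at 182 bp in bins below 2 times in F3-152. It lay at 182 bp and 197 bp in F3-600, and at 188 bp and 192 bp in B73. The maximum thus lay 7 bp, 15 bp and 4 bp lower in enriched long domains, and no interval was computed for these positions. The maxima were low, with 1.10 times the preceding trough in enriched long domains of F3-152, 1.11 times in F3-600 and 1.09 times in B73. Among chromosomes the maximum of the enriched long domains ran from 167 bp to 181 bp in F3-152, from 173 bp to 204 bp in F3-600, where chromosome 9 gave none, and from 182 bp to 206 bp in B73, so the ranges overlapped between F3-600 and both other libraries. Chromosome 10 of F3-600, at 204 bp, and chromosome 3 of B73, at 206 bp, lay above the bins below 2 times of their library. With bins pooled instead, the maximum in enriched long domains was 159 bp in F3-152, 149 bp in F3-600 and 188 bp in B73, so the F3 values depended on how bins were weighted. Enriched narrow domains gave no maximum with equal weight in any library.

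**Figure D5:**
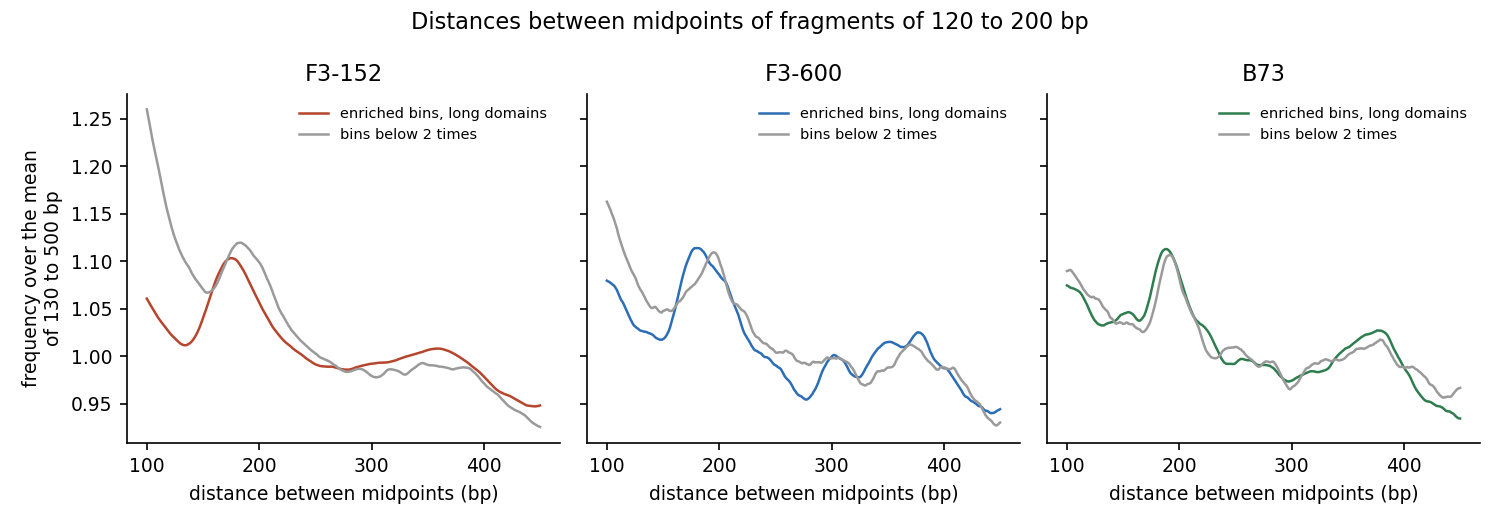
Frequency of distances between midpoints of fragments of 120 to 200 bp within a bin, divided by its mean from 130 to 500 bp, with bins weighted equally, in enriched bins of long domains (coloured) and bins below 2 times (grey). A 15-bp running mean was applied 2 times for display. In the curves smoothed once, the maximum lies at 175, 182 and 188 bp in enriched long domains of F3-152, F3-600 and B73. It lies at 182, 197 and 192 bp in their bins below 2 times.

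Lengths also carried a fine ripple. DNA on a nucleosome is open to nucleases where its helix faces outward, which recurs once per helical turn. Counts per length were taken as 3-bp means over their 21-bp local mean. In bins below 2 times of B73 they had local maxima at 150, 160, 172, 183, 193, 203 and 214 bp, a mean gap of 10.7 bp. The highest was 1.26 times the local mean at 127 bp. Bins below 2 times of F3-152 had local maxima at 125, 152, 160 and 174 bp, and those of F3-600 only at 148 bp. In enriched long domains of F3-152 the highest was 1.24 times at 146 bp, and in those of F3-600 it was 1.24 times at 147 bp. The next highest local maximum of these domains lay at 132 bp in both, with 1.09 times in F3-152 and 1.08 times in F3-600, whereas enriched long domains of B73 had local maxima at 150 bp (1.22 times), 160 bp (1.12 times) and 171 bp (1.25 times).

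The lengths of bins below 2 times were nearly even along the chromosomes. Over 5 equal parts of each chromosome, the share over 200 bp was 27.7% to 30.1% in F3-152, 76.2% to 78.2% in F3-600 and 45.3% to 49.2% in B73, highest in the last part in each. The share under 160 bp within 120 to 200 bp differed by less, from 46.1% to 46.8% in F3-152, 36.1% to 37.5% in F3-600 and 39.7% to 40.9% in B73. For the share under 160 bp these ranges were narrower than the contrast with enriched bins in both F3 lines. In B73 that range was about as wide as the contrast of −1.22 points. For the share over 200 bp the range was wider than the contrast in F3-152 (−1.89 points) and in B73 (−1.94 points).

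Rows without a mate in the files were spread unevenly over the bins of B73. In enriched bins, bins of 2 to 10 times and bins below 2 times they made up 2.94%, 2.27% and 2.67% of rows in F3-152, and 5.12%, 2.97% and 3.29% in F3-600. In B73 they made up 17.5%, 27.7% and 14.2%. Such rows have no length, and their part in the lengths of B73 was not tested.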

How the data were processed

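Anti-CENH3 ChIP-seq libraries of young leaves were analysed, 1 each for F3-152, F3-600 and B73. The deposited files hold 1 row per aligned read, with start, end, name, strand and a mapping quality score of 20 to 60 that the authors' aligner assigned. Per the submitters' processing notes, CASAVA and BWA were used with B73 RefGen_v4. For B73 the study states default settings and a minimum mapping quality; settings for the F3 lines, trimming and the treatment of duplicates are not given in the sources used here.

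Files held 20955210 rows on chromosomes 1 to 10 in F3-152, 14444810 in F3-600 and 7709773 in B73. Names with more than 2 rows were left out. Bins of 10 kb were classed by rows, fragments were placed by midpoint, and a gap of up to 500 kb between enriched bins was bridged. Intervals are exact Clopper-Pearson for shares and Newcombe for differences, at 95%. With 1 library per line no test was run. Scripts ran in Python 3.11.15 with numba 0.67.0 for spacing, pyarrow 21.0.0, pandas 2.3.3, SciPy 1.17.1, Matplotlib 3.10.9 and NumPy 2.4.6. Pairing, collapsing, bin classes, domains and spacing were tested on simulated data, where 13 of 13 quantities were recovered, the spacing maximum within 2 bp.

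The lists and members were chosen with earlier results of these data known. Sites named were the domain with the most reads per chromosome (highest and lowest) and up to 3 narrow domains with the most fragments per library, beside those said to be picked after their values were seen. The 160-bp split, length windows and the 101-bp minimum were chosen after seeing the data. Alternatives were: all pairs, other mapping quality, length, class, bin and fold limits, thinning, and other bin sets.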

Additional observations from a re-analysis of the deposited data

Results flagged for a closer look

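The share of fragments under 120 bp in enriched bins minus that in bins below 2 times was 1.57 points in F3-152 and 1.36 points in F3-600, against −2.17 points in B73. The signs are opposite, and with 1 library per line the difference between lines was not tested.

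Reads on the organelle genomes were more frequent in F3-152 than in B73. Rows on the plastid genome made up 0.219% of all rows in F3-152 and 0.0349% in F3-600, against 0.0289% in B73. Rows on the mitochondrial genome made up 0.120% in F3-152 and 0.0353% in F3-600, against 0.0546% in B73. DNA of these organelles carries no nucleosomes. Its pairs, which were no part of the comparisons, gave a share under 120 bp of 22.5% on the plastid genome of F3-152 (22681 fragments), 4.60% on that of F3-600 (2458) and 28.9% on that of B73 (759).

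Pairs with an outer distance over 600 bp made up 3.44% of the pairs on chromosomes 1 to 10 in F3-600, against 0.612% in B73. They were left out of the length classes.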

How the results depend on the processing

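No paired analysis was possible because each line has 1 library. For 12 results 75 values were computed under alternatives. Of these 28 lay inside the 95% interval of the main value and 47 lay outside it. Only the differences in share could change sign, with 14 alternatives per library, and none did. Shares and medians could not. Thinning kept every pair of B73, the smallest library, so its thinned values could only repeat the main ones. The intervals are narrow at this depth, so small shifts count as moves. They also leave out the spread between libraries of one line, which was not measured. Of 36 values for the split at 160 bp, 20 stayed, 15 moved and 1 reversed: 0.816 points in B73 with bins enriched in all 3 libraries against bins below 2 times in all 3. The cause was not tested.

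Values follow in the order F3-152, F3-600, B73. The share under 120 bp was 8.08%, 1.41% and 6.45% with both mates scored 30 or more, 4.43%, 0.796% and 3.82% with a class limit of 110 bp, 12.5%, 2.35% and 9.83% with 130 bp, and 5.83%, 1.02% and 4.06% from 101 bp (chosen after seeing the data); a lower class limit or longer minimum removes fragments by construction. From 20 to 1000 bp it was 7.82% in F3-152 and 6.21% in B73.

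The difference in that share was 0.324, 0.748 and −1.67 points with 110 bp, 3.56, 2.31 and −3.17 with 130 bp, 1.93, 1.15 and −0.922 from 101 bp, 1.42, 1.25 and −2.25 from 20 to 1000 bp, 1.11, 0.736 and −2.37 in long domains, and 1.95, 1.69 and −1.53 in bins enriched in all 3 libraries. Moves in some libraries only were 1.16 (F3-600) and −2.33 (B73) with both mates scored 30 or more, 1.35 (F3-152) and −2.29 (B73) with bins of 50 kb, 1.65 (F3-152) and −2.08 (B73) with a background of 0.5 to 1.5 times, and −2.29 (B73) with bins classed by fragments. In F3-600 they were 1.31 at 5 times, 1.57 at 20 times, 1.41 with every pair and 1.42 after thinning. With both mates scored 30 or more the median was 159 bp in enriched bins and 170 bp in bins below 2 times in F3-152, 298 bp in enriched bins of F3-600 and 186 bp in those of B73. The cause of the other moves was not tested.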
